A study of Mus musculus with 8 samples.

Results

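The genes described here are the entry genes of transforming growth factor beta (TGF-beta) signalling: the ligands Tgfb1, Tgfb2 and Tgfb3, the receptors Tgfbr1, Tgfbr2 and Tgfbr3, and the latent binding proteins Ltbp1, Ltbp2, Ltbp3 and Ltbp4. They were chosen by name, and all 10 were found among the 16130 genes of the count table and passed the filter on low counts. RNA came from the distal colon of mice with the genotype Tcf4Het/+ ApcMin/+, so both groups carry a heterozygous Tcf4 allele and the truncating Min allele of the tumour suppressor Apc, which causes intestinal adenomas. Animals were kept for 4 months in either enriched (EE, n = 4 libraries) or conventional, non-enriched cages (NE, n = 4). No wild-type group is part of the comparison, and strain and age are not stated in the labels. Whether the libraries of a group stem from different animals is not stated, so p-values measure the spread between these samples, which may be technical.

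TGF-beta is secreted as a latent dimer in which the growth factor stays wrapped in its own propeptide. Latent TGF-beta binding proteins join that complex and tie it to fibrillin and fibronectin in the matrix, from where integrins and proteases release it. The free ligand binds the type II receptor, which activates the type I receptor, which phosphorylates SMAD2 and SMAD3. In the gut the pathway restrains epithelial growth, drives matrix production in wound repair and directs B cells to switch to IgA, and the title of the series names wound repair and IgA.

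Totals ran from 4735764 to 10586851 counts per library, of which the 10 genes held 2308 to 5448. Markers of distal colon epithelium fitted the labelled tissue: all 14 were counted, and the posterior patterning gene Hoxb13 was at 221 ± 30.6 CPM (counts scaled to the size of the library) in NE and 217 ± 36.8 in EE (SD, n = 4). The 14 markers summed to 10586 to 18176 CPM in the EE libraries and 15719 to 22236 CPM in the NE libraries, against 11.1 to 38.5 CPM for 6 small intestine markers, of which Lct and Gata4 are not in the table. Library EE 4 stood apart from the rest, at 46.3 on the first principal component against −14.2 to 6.36. Its summed smooth muscle markers were at 496 CPM against 1599 to 4110 in the other 7 libraries. In bulk tissue, fewer cells of a type and less RNA per cell cannot be told apart. The fold changes of the authors' deposited table have the opposite sign to EE minus NE for 97.8% of the genes tested and for 9 of the 10 genes here. The headers do not name the numerator, so the direction of the columns labelled EE and NE is not settled by the files. EE and NE below mean the libraries so labelled.

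Among the members with a window in the promoter set used, Ltbp2 and Tgfb2 varied most between libraries and Tgfbr1 least. Tgfbr3, which varied more than Tgfb2, had no window in that set. Promoter sequences of Ltbp2, Tgfb2 and Tgfbr1, from 250 bases before to 50 bases after an annotated start, are shown. They are RefSeq sequences of GRCm38.p6 in the direction of transcription. Of the 2 windows of Tgfbr1 the first is shown. Capitals mark the searched motifs on either strand, which did not overlap each other in these windows: GGGCGG (Sp1) in Ltbp2 and Tgfbr1, and CAGACA (bound by SMAD proteins) in Tgfb2.
Ltbp2, chr12:84876442-84876741, minus strand: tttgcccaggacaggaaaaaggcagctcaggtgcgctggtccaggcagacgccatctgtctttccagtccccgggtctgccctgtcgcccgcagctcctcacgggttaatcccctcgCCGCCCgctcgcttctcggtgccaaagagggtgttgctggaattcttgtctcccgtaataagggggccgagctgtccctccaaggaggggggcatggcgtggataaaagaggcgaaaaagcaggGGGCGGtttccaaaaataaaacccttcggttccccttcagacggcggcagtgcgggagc
Tgfb2, chr1:186705940-186706239, minus strand: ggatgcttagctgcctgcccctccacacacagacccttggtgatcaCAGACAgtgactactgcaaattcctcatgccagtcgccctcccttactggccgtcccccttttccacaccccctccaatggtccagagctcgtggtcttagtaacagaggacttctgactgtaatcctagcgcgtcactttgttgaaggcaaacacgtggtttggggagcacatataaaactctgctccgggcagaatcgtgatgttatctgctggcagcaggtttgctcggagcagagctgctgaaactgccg
Tgfbr1, chr4:47352972-47353271, plus strand: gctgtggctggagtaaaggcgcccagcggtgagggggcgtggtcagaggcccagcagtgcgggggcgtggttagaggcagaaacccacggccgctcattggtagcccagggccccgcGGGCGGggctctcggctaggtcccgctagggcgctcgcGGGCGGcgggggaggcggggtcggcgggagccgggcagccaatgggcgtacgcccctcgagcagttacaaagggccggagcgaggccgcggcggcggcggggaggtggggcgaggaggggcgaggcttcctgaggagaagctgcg
The window shown for Tgfbr1 held 74.7% G and C, against 61% in Ltbp2, 54.3% in Tgfb2 and a median of 52.7% over 32851 mouse promoter windows. The other window of Tgfbr1 held 52%. That of Ltbp3, which also varied little, held 48%, and that of Tgfb1 held 77%. RefSeq windows matched 8 of the 10 genes, with 12 windows in all; Tgfb3 and Tgfbr3 are the other two genes. On either strand, GGGCGG occurred in 6 of the 12 windows (Tgfb1, Tgfbr1, Ltbp2 and Ltbp4) and in 35.7% of all windows. Ltbp4 gave 3 of the 6, and its windows 2 and 3 largely overlap (chr7:27333599-27333898 and chr7:27333614-27333913), so the 6 are not separate. CAGACA occurred in 4 of 12 (Tgfb2, Tgfbr1, Ltbp1 and Ltbp3) against 21% of all. The AP-1 motif TGANTCA occurred in 1 (Ltbp3, where it shares bases with CAGACA) against 7.81%, and CTTTGA (TCF/LEF) in 0 against 16%.

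The comparison of EE with NE asks which transcripts differ with housing. None of the 10 genes passed it. Tgfbr1, Tgfbr2, Ltbp3 and Ltbp4 stood at nearly the same mean CPM in both groups. The largest fitted differences were in Tgfbr3 and Tgfb2, both at lower mean CPM across EE, and the groups overlapped in all 10 genes. By edgeR's quasi-likelihood test with Benjamini-Hochberg adjustment, 0 of 14311 genes (0%) had an adjusted p under 0.05, and the lowest adjusted p of a member was 0.592. The unadjusted p was under 0.05 for 1357 genes (9.48%) and 0 members, and without EE 4 for 6.64% of genes and again 0 members. DESeq2 called 12 genes (0.0839%) and limma-voom 0, in both cases without a member. An unadjusted p under 0.05 was reached by Tgfbr3 with limma-voom, with the replicate number as a block, with DESeq2 on trend dispersion (a fit chosen after seeing the data) and without EE 1, by Tgfb1 without EE 1, and by Ltbp1 without EE 3. The log2 fold change was below 0 in 8 of the 10 genes, against 49.7% of all genes tested, with a median of −0.049 against 0.0021. Without EE 4 it was below 0 in 5 of the 10.

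**Figure D1:**
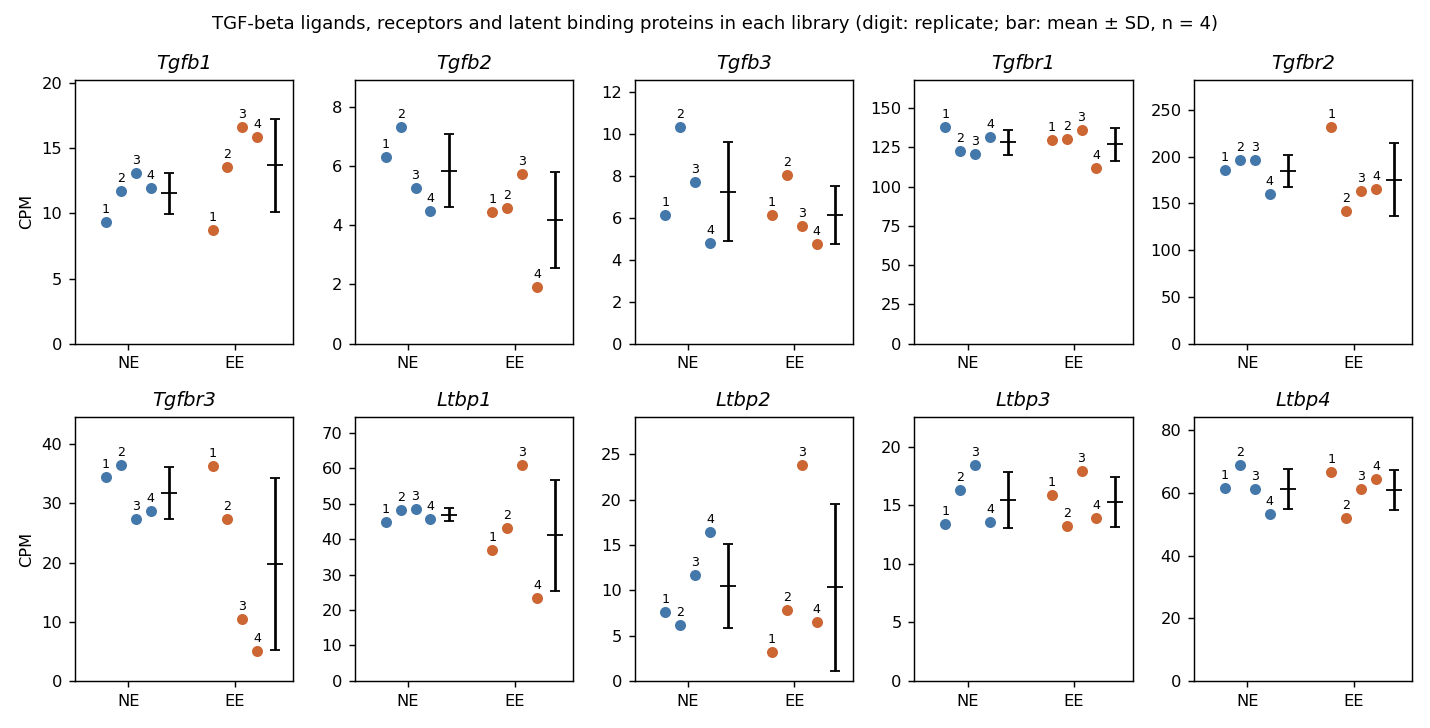
CPM of the 10 genes (vertical axes, each starting at 0) in the 4 NE (blue) and 4 EE (orange) libraries; digits give the replicate and the black bar the mean ± SD. Tgfbr1, Ltbp3 and Ltbp4 lie close together in all libraries, whereas Tgfbr3 falls apart within EE, from 36.3 CPM in EE 1 to 5.07 CPM in EE 4.

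Tgfb1 encodes the ligand made by immune, epithelial and stromal cells and the one tied to IgA switching (chromosome 7, 25687002 to 25705077 on GRCm38). Its level was 9.32, 11.8, 13.1 and 11.9 CPM in NE 1 to NE 4 and 8.71, 13.6, 16.6 and 15.9 CPM in EE 1 to EE 4. EE 2, EE 3 and EE 4 lay above every NE library and EE 1 below every one. The means were 11.5 ± 1.60 and 13.7 ± 3.56 CPM (SD, n = 4 each), and the fitted difference was 0.25 in log2 (SE 0.22, edgeR adjusted p = 0.662). It was 0.41 without EE 1, and 0.16 without EE 3 or without NE 1.

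Tgfb2 encodes a ligand that cannot bind its type II receptor well without betaglycan, the product of Tgfbr3 (chromosome 1, 186622792 to 186705989). It was at 6.32, 7.31, 5.26 and 4.48 CPM in NE 1 to NE 4 and at 4.46, 4.59, 5.74 and 1.90 CPM in EE 1 to EE 4. Just 12 counts fell on Tgfb2 in EE 4, with an exact 95% Poisson interval of 0.983 to 3.32 CPM, which covers counting error only. The other EE libraries lay within or just under the NE range. In log2 the difference was −0.48 (SE 0.33, adjusted p = 0.599) and moved to −0.23 without EE 4.

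Tgfb3, the ligand best known from palate fusion and scarless repair (chromosome 12, 86056745 to 86079041), was at 6.16, 10.3, 7.70 and 4.81 CPM across NE and 6.16, 8.04, 5.59 and 4.76 CPM across EE. The EE values lay almost wholly inside the NE range. In log2 the difference was −0.25 (SE 0.28, adjusted p = 0.733). It was −0.033 without NE 2, −0.14 without EE 4, −0.40 without NE 4 and −0.41 without EE 2.

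Levels of different genes were compared as CPM per kilobase of annotated exon. On that scale Tgfb1 made up 42.7 ± 7.37% of the summed level of the 3 ligand genes in NE and 51.5 ± 10.7% in EE. Its share was highest in EE 3 and EE 4, at 55.5% and 64.4%, against 35.1% to 51.9% in NE. The share of Tgfb2 was 18.6 ± 3.17% in NE and 13.7 ± 4.99% in EE, with 6.73% in EE 4. The groups overlapped for every ligand's share. These shares depend on the length used. With the longest transcript in place of all annotated exons, the mean of Tgfb1 over all libraries was 4.90 instead of 2.50 CPM per kilobase. That of Tgfb3 stayed at 1.98, and that of Tgfb2 moved from 0.865 to 0.979.

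Both signalling receptors were among the steadiest genes here. Tgfbr1, the type I receptor kinase (chromosome 4, 47353222 to 47414931), was at 138, 123, 121 and 131 CPM in NE 1 to NE 4 and at 129.7, 130.3, 136 and 112 CPM in EE 1 to EE 4. Its log2 fold change was −0.014 with a 95% interval of −0.26 to 0.23 (adjusted p = 0.966). Tgfbr2, the type II receptor that binds ligand first (chromosome 9, 116084293 to 116175360), was at 186, 197, 197 and 160.1 CPM across NE and at 231, 142, 164 and 165 CPM across EE. EE 1 was the highest library and EE 2 the lowest, so the EE values spread on both sides of NE. Its log2 fold change was −0.075 with an interval of −0.43 to 0.28 (adjusted p = 0.861).

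Tgfbr3 encodes betaglycan, a co-receptor that presents TGF-beta to the type II receptor and also binds inhibin (chromosome 5, 107106570 to 107289629). It was at 34.4, 36.6, 27.3 and 28.7 CPM in NE 1 to NE 4 and at 36.3, 27.4, 10.4 and 5.07 CPM in EE 1 to EE 4. The values of EE 1 and EE 2 lay inside the NE range, and EE 3 and EE 4 lay far below it. The Poisson intervals of EE 3 (8.11 to 13.2 CPM) and EE 4 (3.47 to 7.16 CPM) did not reach the interval of any other library, the lowest of which began at 23.1 CPM in EE 2. The means were 31.7 ± 4.45 CPM across NE and 19.8 ± 14.5 CPM across EE, and the fitted difference was −0.70 in log2 (SE 0.47, interval −1.74 to 0.34, adjusted p = 0.592). Without EE 4 it was −0.38 and without EE 1 it was −1.17 (adjusted p = 0.815 and 0.470).

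The authors' deposited table lists Tgfbr3 with a log2 fold change of 0.73 and an FDR of 0.0434, with the sign that NE minus EE would have. That makes it the 1 member among the 386 of 16130 genes (2.39%) with an FDR under 0.05 in the authors' deposited table. The other members have an FDR of at least 0.788 there. None of the tests run here gave Tgfbr3 an adjusted p under 0.05. The lowest, 0.119, came from a DESeq2 fit that takes each dispersion from the trend, an alternative chosen after seeing the data that called 274 genes (1.91%). The biological coefficient of variation that edgeR fitted to Tgfbr3 was 0.461, against 0.219 in common over all genes and 0.129 for Tgfbr1.

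Markers of muscle and nerve were low in the same libraries as Tgfbr3. The summed level of the 8 smooth muscle markers, all of them counted, was 2437 to 4110 CPM across NE, 2996 and 3102 CPM in EE 1 and EE 2, 1599 CPM in EE 3 and 496 CPM in EE 4. The 8 markers of enteric neurons and glia, also all counted, summed to 38.1 to 64.9 CPM across NE, 63.3 and 51.7 CPM in EE 1 and EE 2, 20.9 CPM in EE 3 and 26.6 CPM in EE 4. Ret, a receptor kinase gene named after its values were seen, made up 17.8 CPM of the sum in EE 4 and 7.25 CPM in EE 3. The median of that list's log2 CPM, centred on each gene's mean, was −0.996 in EE 3 and −1.67 in EE 4. The 7 pericyte markers summed to 456 to 658 CPM in NE libraries and to 436, 469.9, 310.04 and 76.3 CPM in EE 1, EE 2, EE 3 and EE 4. Rgs5 made up 180 CPM of the pericyte sum in EE 3, against 327 to 511 CPM across NE. Abcc9 and Cspg4 also lay below every NE library there, and Kcnj8 and Cd248 lay within the NE range. Pdgfrb and Notch3 lay above every NE library in EE 3. The centred median of the pericyte list was −0.11 in EE 3 and −1.39 in EE 4. The summed level of the 8 fibroblast markers went another way in EE 3. It was 2170 CPM there, against 1581 to 1859 in NE and 503 in EE 4. Col3a1 made up 978 CPM of the sum in EE 3. In that library Col1a1, Col1a2, Col3a1, Col6a3 and Pdgfra lay above every NE library, and Lum lay within the NE range. Dpt and Dcn lay below every NE library there. They were at 45.8 and 282 CPM, against 68.3 to 93.2 and 289 to 339 CPM across NE. The part of these cell types in the level of Tgfbr3 was not tested.

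**Figure D2:**
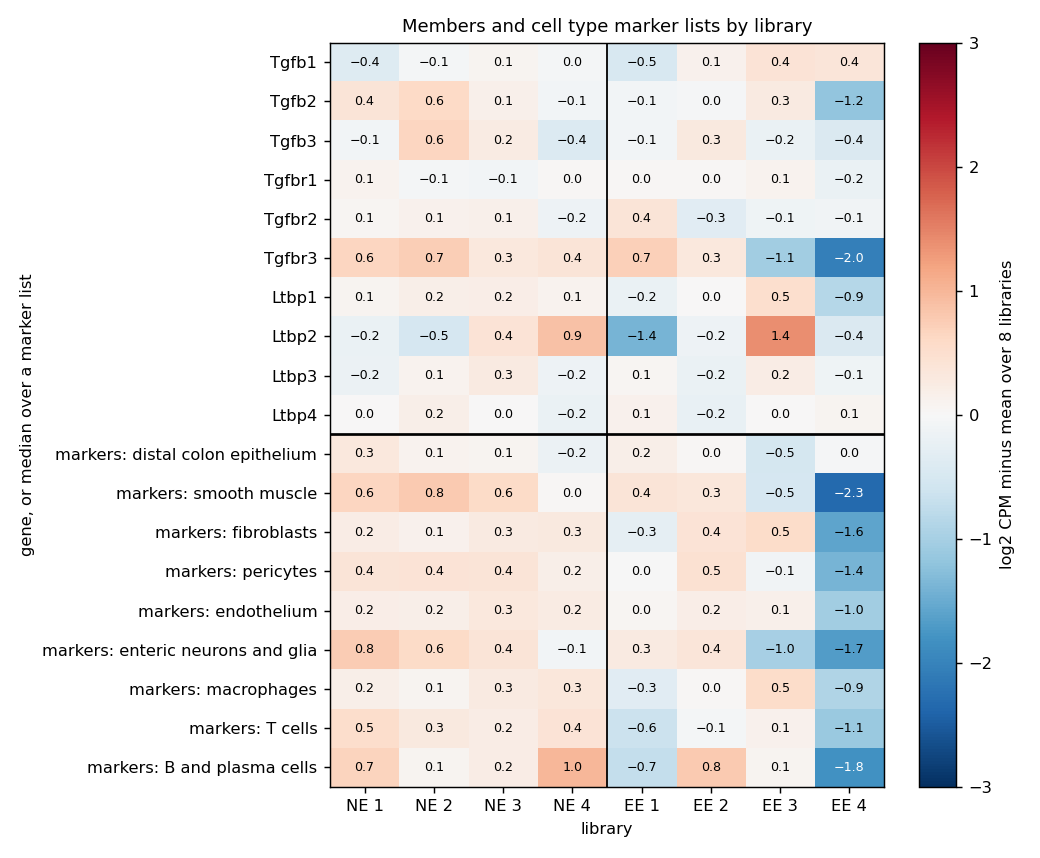
Log2 CPM of each gene, and the median over each cell type marker list, minus the mean over the 8 libraries (colour scale and printed values), for the 4 NE and 4 EE libraries. Tgfbr3 and the lists of smooth muscle and of enteric neurons and glia are low in EE 3 and lower in EE 4, while Ltbp2 is highest in EE 3 and lowest in EE 1.

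Among the receptors per kilobase, Tgfbr1 and Tgfbr2 held 41.8 ± 3.16% and 47.9 ± 3.20% of the summed level in NE, and 44.8 ± 5.50% and 48.6 ± 5.33% in EE. Tgfbr3 held 8.93% to 11.5% in NE. It held 10.3% and 10.1% in EE 1 and EE 2, but 3.75% and 2.04% in EE 3 and EE 4. The ratio of co-receptor to signalling receptor transcripts thus differed within EE by more than it did within NE.

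Of the latent binding proteins, Ltbp1 (chromosome 17, 75005568 to 75392512), which links the latent complex to fibrillin and fibronectin, was at 44.8, 48.2, 48.6 and 45.7 CPM across NE. In EE 1 to EE 4 it was at 36.9, 43.1, 61.0 and 23.3 CPM. The 4 NE libraries were close together, and all 4 EE libraries lay outside their range, 3 below and EE 3 above. The SD was 1.83 CPM across NE and 15.7 CPM across EE, a difference in spread that was not tested. The log2 fold change was −0.19 (SE 0.24, edgeR adjusted p = 0.761), with 0.02 without EE 4 and −0.44 without EE 3.

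Ltbp2 (chromosome 12, 84783212 to 84876532) encodes a matrix protein that, unlike its relatives, does not bind latent TGF-beta. It had the widest range of the 10 genes, with 7.58, 6.16, 11.7 and 16.4 CPM in NE 1 to NE 4 and 3.19, 7.85, 23.9 and 6.50 CPM in EE 1 to EE 4. The EE group held both the lowest and the highest library, and the means were alike at 10.5 ± 4.61 and 10.4 ± 9.22 CPM. The fitted log2 fold change was 0.0060 with an interval of −1.17 to 1.18 (adjusted p = 0.997), and it was −0.82 without EE 3. The interval leaves room for a change of over 2-fold in either direction.

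Ltbp3, which assists secretion of the latent complex and is needed in bone (chromosome 19, 5740904 to 5758532), was at 13.4 to 18.5 CPM across NE and 13.2 to 18.0 CPM across EE. Ltbp4, a protein of elastic fibre assembly (chromosome 7, 27305136 to 27337692), was at 53.2 to 69.1 CPM across NE and 52.1 to 66.7 CPM across EE. Their log2 fold changes were −0.022 (interval −0.40 to 0.36) and −0.0050 (interval −0.28 to 0.27), with adjusted p of 0.966 and 0.993. In EE 4, where the stromal marker lists were lowest, Ltbp4 stood at 64.4 CPM, between EE 3 and EE 1. Exons of Ltbp2 share 764 bases with the antisense gene D030025P21Rik. Whether reads were counted by strand is not given in the sources used here. Reads of this pair may therefore be mixed.

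**Figure D3:**
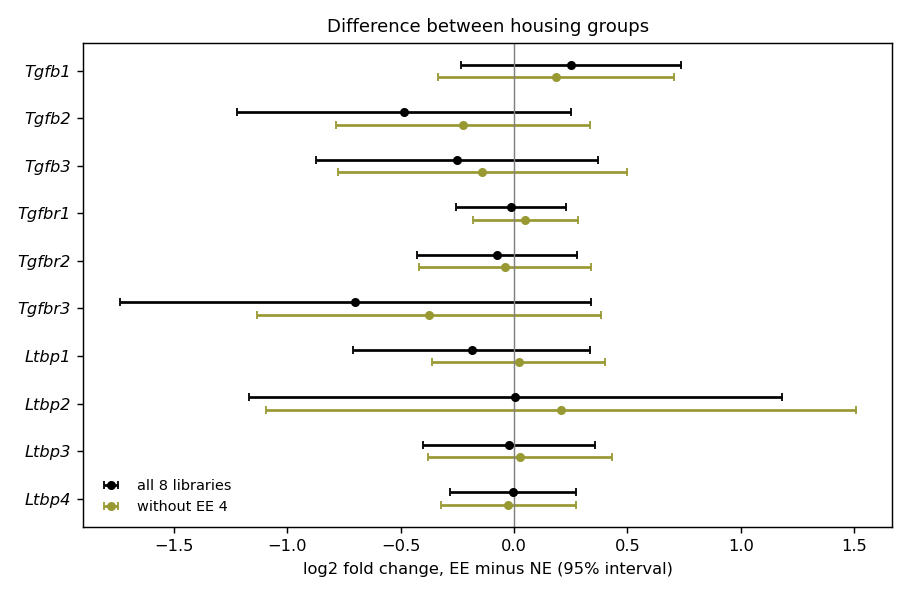
Log2 fold change of each gene (EE minus NE, horizontal axis) with its 95% interval from edgeR, over all 8 libraries (black) and without EE 4 (olive). Every interval crosses 0; the narrowest are those of Tgfbr1 and Ltbp4, and the widest over all 8 libraries that of Ltbp2.

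The order of levels per kilobase was led by the signalling receptors. Over the 8 libraries Tgfbr2 was at 22.0 ± 3.45 and Tgfbr1 at 19.5 ± 1.33 CPM per kilobase, followed by Ltbp4 at 9.46 ± 0.924 (SD, n = 8). Tgfbr2 exceeded Tgfbr1 in 5 of 8 libraries, so these neighbours did not differ beyond their spread. Tgfbr1 exceeded Ltbp4, and Ltbp4 exceeded Ltbp1, in 8 of 8. Below them Ltbp1 was at 4.11 ± 1.01, Tgfbr3 at 3.94 ± 1.81, Tgfb1 at 2.50 ± 0.557, Tgfb3 at 1.98 ± 0.559, Ltbp3 at 1.69 ± 0.234, Ltbp2 at 1.27 ± 0.825 and Tgfb2 at 0.865 ± 0.277 CPM per kilobase. No neighbours in this lower part of the order kept their order in all 8 libraries. With the longest transcript in place of the union of exons, part of this order turned. Tgfb1 moved to 4.90, above Tgfbr3 at 4.23 (Tgfbr3 was higher in 4 of 8 libraries), and exceeded Tgfb3 in 8 of 8. Ltbp3 moved to 2.68, above Tgfb3 at 1.98, which was higher in 2 of 8.

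**Figure D4:**
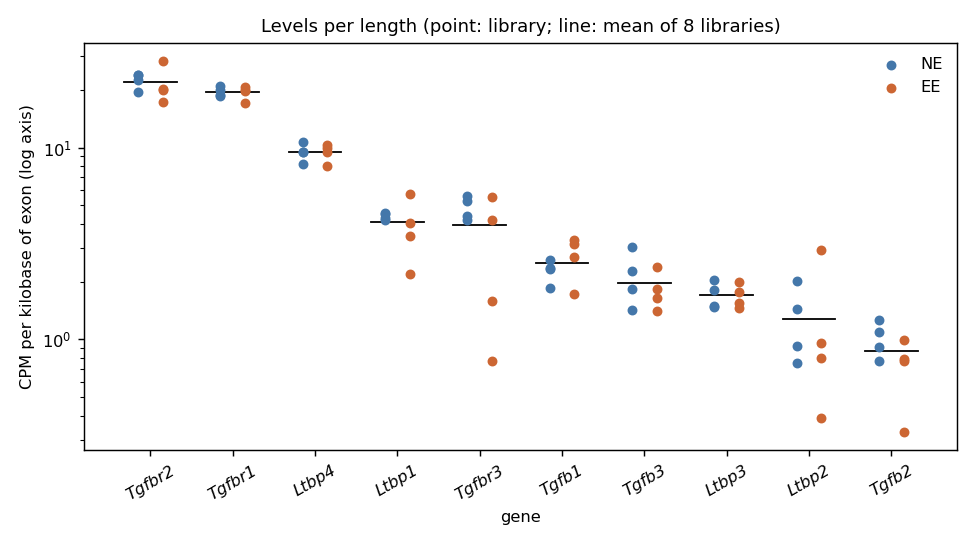
CPM per kilobase of exon (log axis) of the 10 genes in each NE (blue) and EE (orange) library, ordered by the mean over 8 libraries (black line). The signalling receptors Tgfbr2 and Tgfbr1 stand above all other members in each library, and the ligands lie between 0.329 and 3.30.

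For the 3 genes with the widest range, the genes nearest in pattern were found by the root mean square difference of log2 CPM, centred on each gene's mean, over the 8 libraries and 12097 other genes with at least 5 CPM. Nearest to Tgfbr3 were Nsg2 (0.16), Sntg2 (0.17) and Cpe (0.18), against a median of 0.97 over those genes. Cpe, which encodes the prohormone-processing enzyme carboxypeptidase E, was at 59.7 to 80.8 CPM across NE, 78.6 and 67.6 CPM in EE 1 and EE 2, 30.2 CPM in EE 3 and 15.9 CPM in EE 4. Nearest to Ltbp2 were Lyz2 (0.32), the lysozyme gene of myeloid cells, Tyrobp (0.34), a myeloid signalling adaptor, and Cyth4 (0.36), against a median of 0.86. Lyz2 was at 797 CPM in EE 3 and 599 CPM in NE 4, the same 2 libraries in which Ltbp2 was highest. The summed level of the 6 macrophage markers, all of them counted, was 144 to 159 CPM across NE, and in EE 1 to EE 4 it was 110.4, 131, 157 and 74.7 CPM. In EE 3 this sum joins markers that went opposite ways. Csf1r, Adgre1 and Cd68 lay above every NE library there. Mertk and Cd163 lay below every NE library, and Cx3cr1 lay within the NE range. The part of myeloid cells in the level of Ltbp2 was not tested. Nearest to Tgfb2 were the receptor kinase gene Axl (0.12), Il16 (0.14) and Itga9 (0.15), against a median of 0.56.

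**Figure D5:**
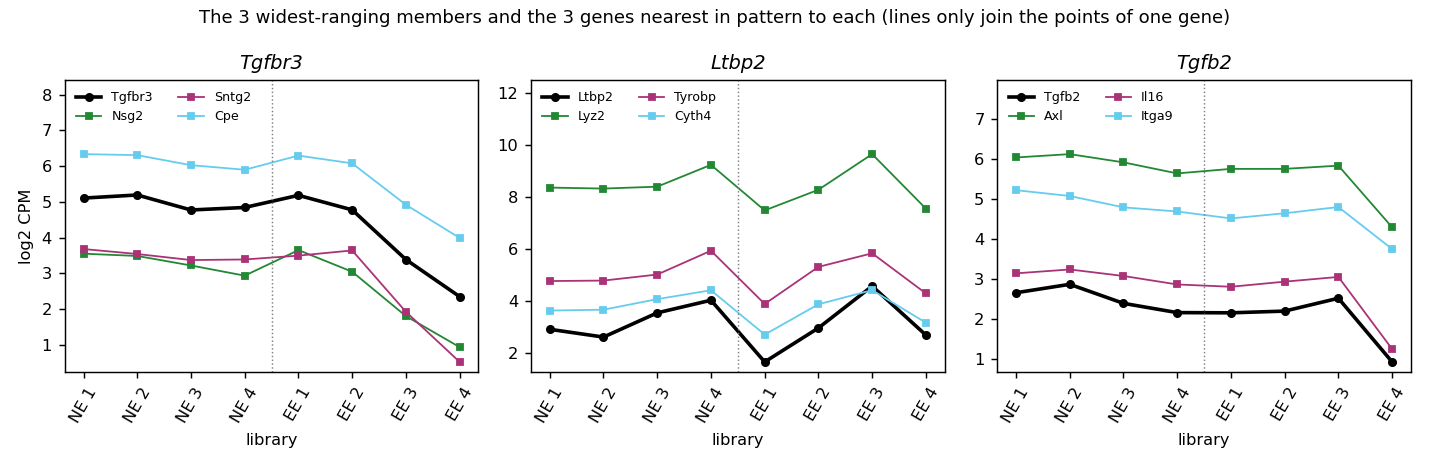
Log2 CPM, here without a prior count, by library of Tgfbr3, Ltbp2 and Tgfb2 (black) with the 3 genes nearest in pattern to each (coloured). Lines only join the points of the same gene. Cpe falls with Tgfbr3 in EE 3 and EE 4, Lyz2 peaks with Ltbp2 in NE 4 and EE 3, and Axl is low with Tgfb2 in EE 4.

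Other genes of the pathway gave the same picture of 0 calls. Of 82 listed genes 79 were tested with edgeR and 0 passed over all genes; 8 were higher and 1 lower in EE at an unadjusted p under 0.05, where 5.73% of all genes were higher and 3.75% lower. The log2 fold change was above 0 in 37 and below 0 in 42 of them, with a median of −0.031 against 0.0021 over all genes. Without EE 4 it was above 0 in 45 and below 0 in 34, with a median of 0.028 against 0.0064.

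Genes that activate or anchor the latent complex held 4 of those 8. The log2 fold change was above 0 in 11 of 21, with a median of 0.026, and without EE 4 in 16 of 21, with a median of 0.17. Itgb8, an integrin subunit that pairs with the alpha v subunit to release TGF-beta, was at 25.1, 23.6, 27.2 and 25.5 CPM across NE and at 31.6, 41.7, 39.4 and 47.1 CPM across EE. It was the 1 gene of this list whose groups did not overlap, which held for 4.89% of all genes. Its partner Itgav was at 174 ± 21.4 CPM across NE and 215 ± 11.3 CPM across EE, and Thbs1, the matrix protein thrombospondin that can also activate the complex, at 294 ± 28.2 and 396 ± 53.2 CPM. The log2 fold changes of these 3 genes were 0.66, 0.31 and 0.43 (SE 0.14, 0.12 and 0.14), each with an edgeR adjusted p of 0.520. Furin, the protease that cuts the propeptide, named after its values were seen as the last of the 4, had a log2 fold change of 0.47 and of 0.26 without EE 4. Itgb6, the epithelial alternative partner of Itgav, had a log2 fold change of −0.09 (SE 0.14). That of the matrix anchor Fbn1 was −0.29 (SE 0.39) and 0.024 without EE 4, the library in which it stood at 21.1 CPM against 49.7 to 109 CPM in the other libraries.

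Among 11 accessory receptors and ligand traps 4 had positive and 7 negative values, with a median of −0.23, and without EE 4 the numbers were 5 and 6, with a median of −0.11. Htra1, a secreted protease that cleaves proteins of the pathway, ran from 103 to 137 CPM across NE with 149.7, 119, 332 and 197 CPM in EE 1 to EE 4, so EE 2 lay within NE. Its log2 fold change was 0.69 (SE 0.28, edgeR adjusted p = 0.520), and 0.34 without EE 3. The authors' deposited table lists Htra1 at −0.56 with an FDR of 0.00942. Nrp1, a co-receptor, was at 35.2 ± 2.25 and 28.5 ± 5.63 CPM, and Acvrl1, an endothelial type I receptor, at 21.1 ± 1.46 and 16.5 ± 5.59 CPM, with 8.56 CPM in EE 4. Their log2 fold changes were −0.31 and −0.36, and −0.19 and −0.13 without EE 4. Summed endothelial markers (7 of 7 counted) were at 80.4 CPM in EE 4 against 153 to 170.1 CPM in the other libraries, and their part in the value of Acvrl1 was not tested.

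SMAD proteins and their regulators were divided, with 12 of 20 positive and a median of 0.08. Without EE 4, 9 were positive and 11 negative, with a median of −0.0029. The lowest p were those of the corepressors Tgif2 (5.48 ± 1.54 CPM across NE and 9.36 ± 3.01 CPM across EE), Skil (227 ± 14.9 and 278 ± 42.9 CPM) and Tgif1 (74.3 ± 9.24 and 95.1 ± 22.0 CPM). In all 3 EE 4 was the highest library, and their log2 fold changes of 0.77, 0.29 and 0.36 were 0.57, 0.21 and 0.25 without it. The effectors Smad2 and Smad3 and the shared partner Smad4 had log2 fold changes of −0.06, 0.23 and −0.13 (SE 0.11, 0.22 and 0.12). For Smad3 it was −0.047 without EE 4, the library in which it stood at 111 CPM against 47.3 to 70.0 CPM in the other 7 libraries.

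Of 23 tested target genes 11 had positive and 12 negative values, with a median of −0.0067, and without EE 4 the numbers were 15 and 8, with a median of 0.078. Bhlhe40 and Klf10, transcription factor genes that respond early to TGF-beta, were at 140.2 ± 19.7 and 80.5 ± 11.8 CPM across NE and 178 ± 20.8 and 99.1 ± 6.19 CPM across EE. Their log2 fold changes were 0.34 and 0.30 (SE 0.14 and 0.13, edgeR adjusted p = 0.520 each). The feedback inhibitor Smad7 was at 0.17 (SE 0.16) and the collagen gene Col1a1 at −0.0067 (SE 0.27) on the log2 fold change scale, and at 0.074 and 0.17 without EE 4. The authors' deposited table puts 4 of the other pathway genes under an FDR of 0.05: Htra1, Igha and the contractile genes Acta2 and Tagln, the last 2 named after their values were seen (log2 fold changes of 1.08 and 0.93 in that table). In EE 4 they stood at 87.4 and 113 CPM, against 329 to 735 and 435 to 953 CPM in the other 7 libraries, beside the smooth muscle values given above.

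Of 9 genes of IgA switching 8 were tested, 3 with positive and 5 with negative values and a median of −0.22 (without EE 4, 4 and 4 and a median of −0.12). Aldh1a2, a retinoic acid synthesis enzyme, was at 6.32, 7.31, 6.29 and 5.64 CPM across NE and at 3.40, 4.40, 3.63 and 1.43 CPM across EE. The groups did not overlap, which held in this direction for 2.02% of all genes, and the log2 fold change was −0.998 (SE 0.32, edgeR adjusted p = 0.520). Igha and the receptor gene Tnfrsf13b had log2 fold changes of −0.99 and −0.71 (SE 0.48 and 0.43, edgeR adjusted p = 0.522 and 0.565). Without EE 4 these were −0.64 and −0.49, and that of Tnfrsf13b was −1.19 without EE 2. Igha stood at 197 CPM in EE 4, against 869 to 2151 CPM in the other libraries. The authors' deposited table lists Igha at 1.30 with an FDR of 0.00028, with the sign that NE minus EE would have. Summed markers of B and plasma cells (6 of 6 counted) ran from 649 to 1450.3 CPM across NE, and were at 531, 1100.1, 985 and 114 CPM in EE 1 to EE 4; their part in these values was not tested. The switch regulator Runx3 had a log2 fold change of 0.15 (SE 0.42).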

How the data were processed

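Ribosomal RNA-depleted, strand-preserving libraries of total RNA were sequenced on an Illumina HiSeq with unpaired reads of 50 bases, per the labels' protocols. Novoalign 2.08.01, DESeq 1.14.0 and the build mm10 are named in the submitters' processing notes. The authors deposited 1 table of raw read counts per gene, and per the file headers it also holds their log2 fold change and FDR, an adjusted p-value. The counting program, its annotation and its use of strand: not given in the sources used here.

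The counts were tested with edgeR 4.0.16 (R 4.3.3): filterByExpr (14311 genes kept), TMM scaling, and the robust quasi-likelihood test of EE against NE with Benjamini-Hochberg adjustment over all genes and a threshold of 0.05. CPM divide each count by the effective (TMM-adjusted) library size. For log2 CPM a prior count of 2 was added before taking log2, except in the figure of nearest patterns, which has none. A standard error is the log2 fold change divided by the square root of F. Library totals set the precision of low genes, for which exact 95% Poisson intervals are given. Exon lengths and coordinates are from GENCODE M21 (GRCm38, the same build as mm10), in which 15948 of 16130 identifiers were found. Alternatives were DESeq2 1.42.0, limma-voom (limma 3.58.1), RLE and upper-quartile scaling, other filters, a replicate block and each library left out. DESeq2 with trend dispersion, and both DESeq2 fits without EE 4, were chosen after seeing the data.

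The members and gene lists were chosen with earlier results of these data known. Named are all members, the 3 genes of each pathway list with the smallest p, and the 3 genes nearest in pattern to the 3 widest-ranging members; other genes named in the pathway lists and the tissue check were chosen after their values were seen.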

Additional observations from a re-analysis of the deposited data

How the results depend on the processing

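No member passed an adjusted p of 0.05 under any of the 18 alternatives. Over all genes the count of 0 calls became 12 with DESeq2, 274 with DESeq2 on trend dispersion, 6 and 84 with these 2 fits without EE 4, and 0 to 1 when each library was left out. Other pathway genes went from 0 to 4 calls with trend dispersion (2 without EE 4). Tgfb1, Tgfb2, Tgfb3 and Tgfbr3 kept their sign under all 18, with ranges of 0.16 to 0.41, −0.69 to −0.23, −0.41 to −0.03 and −1.17 to −0.37. The sign of the other members turned under at least 1 alternative. With 1 library left out the log2 fold change ran from −0.043 to 0.049 for Tgfbr1, −0.24 to 0.014 for Tgfbr2, −0.44 to 0.020 for Ltbp1, −0.82 to 0.29 for Ltbp2, −0.10 to 0.083 for Ltbp3 and −0.066 to 0.064 for Ltbp4. Without EE 4, DESeq2 gave 0.040 (Tgfbr1), 0.0058 (Ltbp1) and 0.014 (Ltbp3), and with trend dispersion 0.039, 0.0051 and 0.016. Ltbp2 was −0.0057 with DESeq2 and −0.22 with limma-voom. The cause was not tested. With the replicate number as a block, edgeR called 0 genes, the log2 fold change of Ltbp2 was −0.22 and that of Tgfbr3 −0.98 (adjusted p = 0.502). Deviations of same-numbered libraries from their group means had correlations of 0.25, 0.01, −0.18 and −0.04 over genes. With 4 libraries per group these values cannot decide whether the numbers pair the samples. With the longest transcript as the length, levels per kilobase moved for Tgfb1 (4.90), Tgfbr1 (22.2), Ltbp1 (6.59), Ltbp3 (2.68) and Ltbp4 (11.4). Depth limits Tgfb2, with 12 to 56 counts a library, and Ltbp2, with 15 to 158.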
